A study of Homo sapiens with 20 samples.

Results

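Transcripts of 47 nucleolar ribosome biogenesis factors were followed in HCT116 cells, a human colorectal carcinoma line, beside the MYC transcript, which was low with either of 2 compounds. MYC and the factors were measured in the same libraries, so the order of their changes is not known. The genes were taken by name: every UTP, NOP, NOL or RRP symbol followed by a number, the RNA polymerase I subunits POLR1A to POLR1E, and NCL, FBL, NPM1, DKC1, BOP1, PES1 and WDR12. All 47 were listed at 5 h and at 12 h, among 15531 genes in all (14222 at 5 h and 15381 at 12 h). By their known roles 5 are RNA polymerase I subunits, 19 belong to the small subunit processome, 5 to the core of small nucleolar ribonucleoproteins (snoRNPs), 13 to large subunit assembly and 2 are nucleolar chaperones. NOL12 was kept apart, and NOL3 and NOL4L share only the name pattern. NOP9 was counted with large subunit assembly, although in yeast it belongs to the small subunit. Cells received chaetocin, chetomin, MeS-chaetocin or MeS-chetomin at 500 nM, or DMSO at 0.5% as vehicle, for 5 h or 12 h. Chaetocin and chetomin are fungal epidithiodiketopiperazines, and the labels describe the MeS compounds as their sulfide-depleted analogs. Each of the 10 groups held 2 libraries of poly(A) RNA, 20 in all, from this 1 unmodified cell line.

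Ribosome production starts in the nucleolus, where RNA polymerase I transcribes the ribosomal RNA precursor. The small subunit processome, guided by the U3 snoRNP, folds and cleaves the 5′ part of that precursor, while other snoRNPs methylate and pseudouridylate it and a separate set of factors builds the large subunit. MYC is a transcription factor known to drive many of these genes, and NCL, NPM1 and FBL are among its textbook targets. HCT116 cells, like other colorectal carcinoma cells, carry high MYC transcript levels downstream of Wnt signalling.

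Values are the normalized per-library values of the deposited tables, which follow transcript length and whose unit the headers do not name, so read depth is unknown. A difference is one of log2(value + 1), compound minus vehicle unless another pair is named, and "called" means an adjusted p under 0.05 by limma over all genes tested. With 2 libraries a group an exact permutation test of 1 value cannot go below p = 0.333, so the calls rest on the spread pooled across genes. Summed values ran between 875371 and 1170802 per library. The 10 most abundant genes took between 9.42% and 17.29% of that sum in 19 libraries and 20.29% in replicate 1 of vehicle at 5 h, which stood apart. The colorectal epithelial markers EPCAM, CDH1, KRT8, KRT18, KRT19 and CDX2 were listed in the tables at both times, and VIL1 was not. The 47 factors made up between 0.7565% and 1.0712% of the summed value, and none was listed at 0 in any library.

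MYC had 23.8 and 22.4 with chaetocin and 39.8 and 38.2 with chetomin at 5 h, against 198 and 220 with vehicle. By 12 h it had 55.1 and 43.4 with chaetocin and 52.5 and 41.4 with chetomin, against 164 and 174 with vehicle. All 8 libraries of these compounds lay below every vehicle library. The log2 differences were -3.12 ± 0.15 (SE) with chaetocin and -2.39 ± 0.15 with chetomin at 5 h, and -1.77 ± 0.16 and -1.84 ± 0.17 in the same order at 12 h, with limma adjusted p between 0.000231 and 0.000855. With the analogs MYC had 182 and 221 (MeS-chaetocin) and 256 and 262 (MeS-chetomin) at 5 h, and 219 and 187 (MeS-chaetocin) and 161 and 147 (MeS-chetomin) at 12 h, none of them called.

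By their median the 47 factors lay nearer to vehicle than MYC did, and most of them were not called in any 1 comparison. At 5 h chaetocin lowered 5 and raised 0 of the 47, where 11.1% of all genes were called, 6.53% of them downward and 4.56% upward as shares of genes tested. Chetomin at 5 h lowered 8 and raised 1, where 15.7% of all genes were called, 8.71% lower and 7.02% higher. At 12 h chaetocin lowered 18 and raised 1, where 47% of all genes were called, 26.8% lower and 20.2% higher. Chetomin at 12 h lowered 12 and raised 1, where 35.8% of all genes were called, 20.2% lower and 15.6% higher. The share of the 47 called in either direction was 10.638%, 19.149%, 40.426% and 27.66% in these 4 comparisons, near the share of all genes in each. Most of the calls among the 47 were downward on this scale, whereas those of all genes split more evenly; that difference was not tested.

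The median log2 difference of the 47 was -0.24 with chaetocin and -0.28 with chetomin at 5 h, beside -0.09 and -0.08 over all genes in the same order. At 12 h it was -0.34 with chaetocin, beside -0.16 over all genes, and -0.14 with chetomin, beside -0.15. The 4 comparisons share the vehicle libraries of their time, so they are not independent. The direction of small differences depended on scaling: on the authors' CPM scale the median of all genes lay at 0.09, 0.10, 0.13 and 0.10 in the order above, and relative to it the 47 had medians of -0.12, -0.15, -0.12 and 0.07. On that scale the calls at 5 h were 3 lower and 0 higher with chaetocin and 5 lower and 3 higher with chetomin. At 12 h they were 10 lower and 9 higher with chaetocin, and 5 lower and 8 higher with chetomin. Of all genes 9.71%, 14.4%, 42.4% and 31.9% were then called in the order above.

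The counts of calls changed with each library left out, among all genes as among the factors. Such a fit leaves 1 library in a group, so its counts are not read as a trait of the factors. Median differences of the factors are given instead, with those of all genes in brackets. Without replicate 1 or replicate 2 of the compound they were -0.194 (-0.136) or -0.236 (-0.06) with chaetocin at 5 h. With chetomin at 5 h they were -0.21 (-0.085) or -0.269 (-0.085). At 12 h they were -0.328 (-0.148) or -0.312 (-0.168) with chaetocin and -0.113 (-0.179) or -0.177 (-0.117) with chetomin. Without replicate 1 of vehicle at 5 h, the library that stood apart, they were -0.155 (-0.161) with chaetocin and -0.231 (-0.142) with chetomin. Without replicate 2 of vehicle at 5 h they were -0.169 (-0.043) and -0.187 (-0.025), chaetocin first. POLR1C and RRP8 (chaetocin, 5 h), NOP16, POLR1C and UTP3 (chetomin, 5 h), and NOP16 and POLR1C (chaetocin, 12 h) were the calls that held without each library in turn. No call with chetomin at 12 h held in that way.

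**Figure D1:**
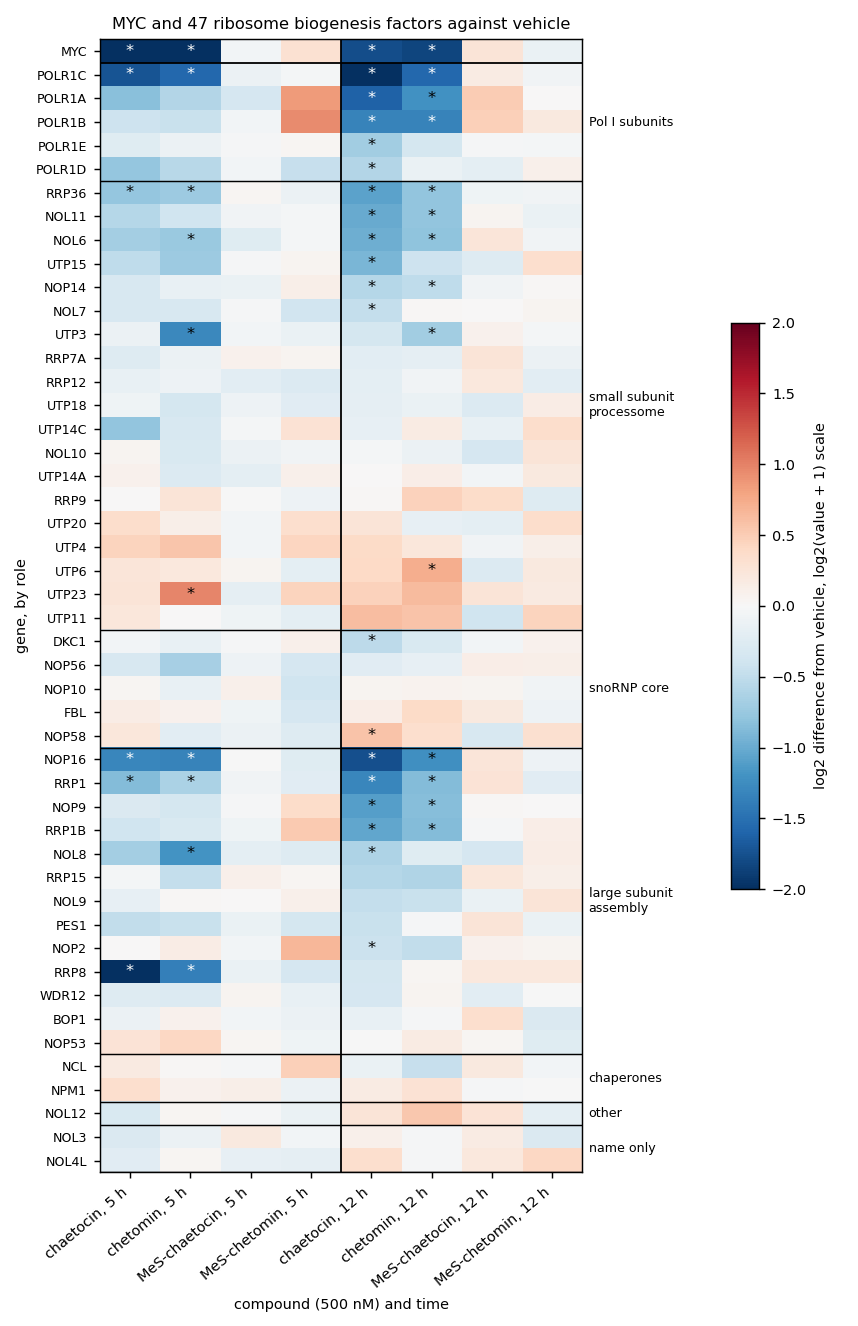
Log2 difference from vehicle of MYC and the 47 factors (rows, by role) for each compound and time (columns), on the log2(value + 1) scale with the colour range cut at 2 in either direction; an asterisk marks a limma adjusted p under 0.05. The dark rows of POLR1C, NOP16 and RRP1 contrast with the paler rows of FBL and NPM1, and no factor is marked with either analog.

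**Figure D2:**
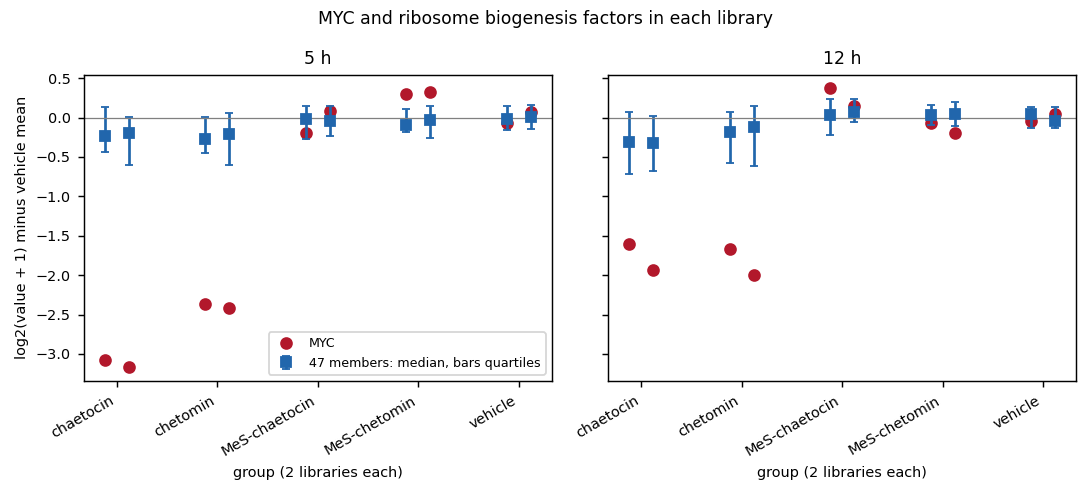
Log2(value + 1) minus the vehicle mean for MYC (circles) and the median of the 47 factors (squares, bars span the quartiles) in each library, 2 libraries a group. With chaetocin and chetomin MYC lies between -3.17 and -1.60 while the median of the factors lies between -0.33 and -0.11.

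Markers of other cell types, taken as a check on the cells, were higher than vehicle in all 8 chaetocin and chetomin libraries and in 5 of 8 analog libraries. Of 10 such genes, CD68, COL1A1 and ALB were listed at both times and PECAM1 and VWF at 12 h, while PTPRC, CD3E, COL1A2, DCN and APOA1 were not listed. Their summed value was 8.74 and 7.06 with chaetocin and 9.55 and 8.51 with chetomin at 5 h, against 1.62 and 3.06 with vehicle. With the analogs at 5 h it was 2.70 and 6.32 (MeS-chaetocin) and 5.20 and 7.85 (MeS-chetomin). At 12 h the sum was 20.8 and 17.9 with chaetocin, 16.1 and 16.3 with chetomin, 8.99 and 15.5 with MeS-chaetocin and 11.5 and 9.08 with MeS-chetomin, against 6.86 and 10.6 with vehicle. The mitochondrially encoded share at 5 h was 6.07% to 7.484% with chaetocin, 6.782% to 7.289% with chetomin, 4.448% to 7.832% with MeS-chaetocin and 6.17% to 6.467% with MeS-chetomin, against 5.25% to 5.685% with vehicle. At 12 h it was 8.501% to 11.335% with chaetocin, 7.977% to 8.871% with chetomin, 3.749% to 6.939% with MeS-chaetocin and 8.461% to 9.111% with MeS-chetomin, against 5.45% to 8.181% with vehicle. The part of either in the results that follow was not tested. In bulk RNA fewer cells of a type and less RNA per cell cannot be told apart.

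The RNA polymerase I subunits were the role group furthest below vehicle. All 5 were called lower with chaetocin at 12 h (beside 26.8% of all genes) and 3 of 5 with chetomin at 12 h (beside 20.2%). At 5 h 1 of 5, POLR1C, was called lower with each compound (beside 6.53% and 8.71% of all genes). Their median log2 difference was -0.78 with chaetocin and -0.55 with chetomin at 5 h, and -1.34 and -1.21 at 12 h, beside all-gene medians between -0.16 and -0.08. On the authors' CPM scale 3 of the 5 chaetocin calls and all 3 chetomin calls at 12 h held. Of all genes 42.4% and 31.9% were called there, chaetocin first. POLR1D with chetomin turned to 0.20 at 12 h and POLR1E to 0.11 at 5 h, and the group's medians stayed below 0.

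POLR1C (ENSG00000171453; GRCh38, chr6:43509702-43562419, plus strand, 11 exon blocks) encodes a subunit shared by RNA polymerases I and III. It had 42.9 and 41.7 with chaetocin and 49.5 and 45.4 with chetomin at 5 h, against 132 and 153 with vehicle. After 12 h its values were 27.0 and 26.0 with chaetocin and 36.9 and 36.7 with chetomin, against 111 and 111 with vehicle. The groups did not overlap at either time. The log2 differences were -1.73 ± 0.16 (SE) and -1.56 ± 0.16 at 5 h and -2.03 ± 0.13 and -1.57 ± 0.16 at 12 h, chaetocin first, with limma adjusted p of 0.0034, 0.0012, 0.00042 and 0.00037. At 12 h the call with chetomin was lost without chetomin replicate 1 (adjusted p = 0.0509 by limma). Exons of 4 genes on the opposite strand overlap those of POLR1C, and no source used here gives the strand setting of the counting.

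POLR1A and POLR1B encode the pair of large catalytic subunits. POLR1A (ENSG00000068654; chr2:86020216-86106155, minus strand) had 6.27 and 6.95 with chaetocin and 9.97 and 8.21 with chetomin at 12 h, against 26.0 and 19.0 with vehicle. POLR1B (ENSG00000125630; chr2:112541915-112577150, plus strand) had 14.4 and 9.80 with chaetocin and 12.95 and 10.95 with chetomin at 12 h, against 33.0 and 30.1 with vehicle. For both genes every library of the 2 compounds lay below both vehicle libraries at 12 h. The log2 differences at 12 h were -1.61 ± 0.22 and -1.21 ± 0.24 for POLR1A and -1.34 ± 0.22 and -1.33 ± 0.20 for POLR1B, chaetocin first, with limma adjusted p between 0.0022 and 0.0066, and these calls were lost without either replicate of the compound. At 5 h neither gene was called. POLR1A had 10.5 and 5.80 with chaetocin and 11.6 and 7.70 with chetomin, against 11.7 and 18.5 with vehicle. POLR1B had 19.9 and 13.8 with chaetocin and 18.4 and 14.1 with chetomin, against 17.3 and 29.1 with vehicle. The vehicle library that stood apart was the lower of its pair for both genes, the 4 POLR1A values with the compounds were below it, and the POLR1B values lay on both sides of it.

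POLR1E, the PAF53 subunit of RNA polymerase I, had 26.9 and 26.2 with chaetocin and 32.9 and 34.7 with chetomin at 12 h, against 41.9 and 45.2 with vehicle. POLR1D, which like POLR1C also serves RNA polymerase III, had 63.8 and 67.3 with chaetocin and 84.1 and 97.9 with chetomin at 12 h, against 106 and 92.9 with vehicle. Only chaetocin was called for these 2 subunits, at -0.69 ± 0.14 and -0.59 ± 0.14 (limma adjusted p = 0.0100 and 0.0145), and neither call held on the authors' CPM scale. The difference between the compounds was -0.34 for POLR1E and -0.46 for POLR1D at 12 h, chaetocin minus chetomin, and neither was called (limma adjusted p = 0.203 and 0.0944). At 5 h POLR1E had 50.9 and 50.8 with chaetocin and 54.9 and 55.3 with chetomin, against 59.4 and 60.8 with vehicle. POLR1D had 76.4 and 89.8 with chaetocin and 94.8 and 99.6 with chetomin at 5 h, against 178 and 114 with vehicle. Both genes lay below vehicle there, by -0.24 and -0.12 for POLR1E and -0.78 and -0.55 for POLR1D, chaetocin first, uncalled.

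**Figure D3:**
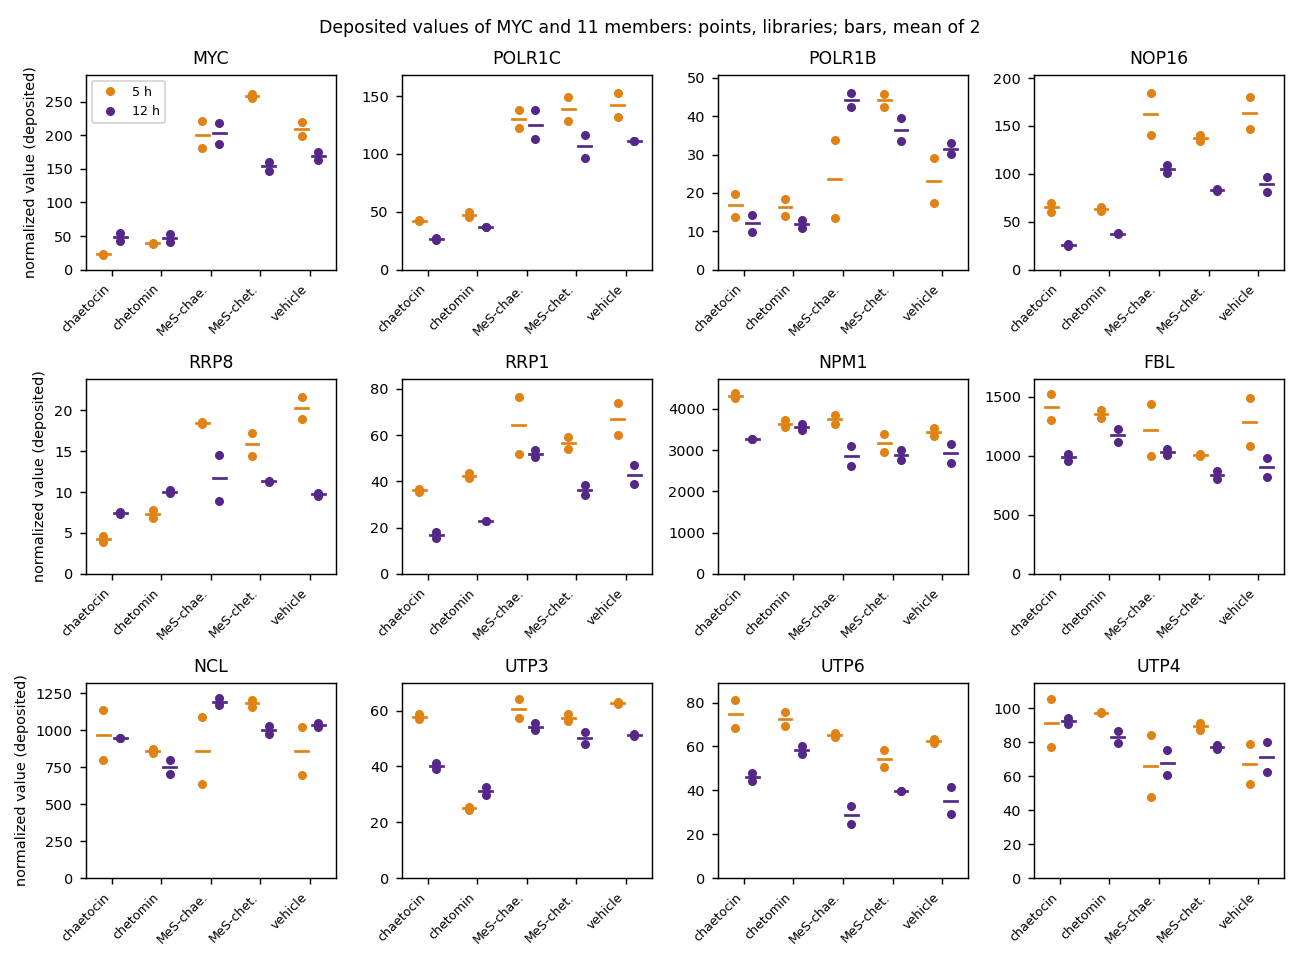
Deposited normalized values (vertical axes, from 0) of MYC and 11 factors in each group at 5 h and 12 h; points are libraries and bars the mean of 2. POLR1C and NOP16 are low in all 8 libraries of chaetocin and chetomin, RRP8 is low at 5 h, UTP3 is low with chetomin, and NPM1, FBL and NCL overlap or lie close to vehicle.

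The large subunit assembly factors had no member called higher on the log2(value + 1) scale. Of 13, 3 were called lower with chaetocin and 4 with chetomin at 5 h, and 6 with chaetocin and 4 with chetomin at 12 h. These were 23.1%, 30.8%, 46.2% and 30.8% of the group, beside 6.53%, 8.71%, 26.8% and 20.2% of all genes called lower. NOP9, of the small subunit in yeast, was among the calls at 12 h with both compounds, at -1.10 and -0.86, chaetocin first. Its chetomin call was lost on the authors' CPM scale. The medians of the 13 were -0.29 and -0.36 at 5 h and -0.48 and -0.45 at 12 h, chaetocin first. On the authors' CPM scale these medians were -0.09, -0.15, -0.16 and -0.16. The calls were then 2 lower with chaetocin and 3 lower and 1 higher with chetomin at 5 h. At 12 h they were 4 lower with chaetocin and 1 lower with chetomin. Of all genes 9.71%, 14.4%, 42.4% and 31.9% were called on that scale in the same order, 504, 654, 2152 and 1388 genes of them lower.

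NOP16, a nucleolar protein of early large subunit precursors (ENSG00000048162; chr5:176383938-176388975, minus strand), was called lower in all 4 comparisons. It had 60.4 and 69.4 with chaetocin and 61.7 and 65.7 with chetomin at 5 h, against 180 and 146 with vehicle. The 12 h values were 26.4 and 24.7 with chaetocin and 36.7 and 37.9 with chetomin, against 81.3 and 96.7 with vehicle. No library of these compounds reached a vehicle value of its time. The log2 differences were -1.31 ± 0.17 and -1.34 ± 0.16 at 5 h and -1.76 ± 0.15 and -1.23 ± 0.17 at 12 h, chaetocin first, with limma adjusted p between 0.00066 and 0.0091. Without chaetocin replicate 1 the 5 h call was lost (adjusted p = 0.0551 by limma), and without either chetomin replicate so was the 12 h call with chetomin. Exons of ARL10 and HIGD2A on the opposite strand overlap those of NOP16.

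RRP1, a factor of early large subunit processing (chr21:43789513-43805293, plus strand), had 35.3 and 36.9 with chaetocin and 41.4 and 43.4 with chetomin at 5 h, against 73.9 and 60.0 with vehicle. Its values at 12 h were 18.04 and 15.32 with chaetocin and 22.9 and 22.9 with chetomin, against 38.7 and 46.9 with vehicle. It was called lower in all 4 comparisons, between -1.31 and -0.64, and on the authors' CPM scale the call with chaetocin at 12 h held while the other 3 were lost. RRP1B, its paralog, was called at 12 h with both compounds, at -1.04 and -0.87, chaetocin first, and on the authors' CPM scale the chetomin call was lost.

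RRP8, the nucleolar methyltransferase that modifies a base of the large subunit ribosomal RNA (ENSG00000132275; chr11:6595075-6603620, minus strand), was low at 5 h. It had 3.95 and 4.64 with chaetocin and 6.78 and 7.77 with chetomin at 5 h, against 21.6 and 18.9 with vehicle. At 12 h it had 7.32 and 7.52 with chaetocin and 9.87 and 10.23 with chetomin, against 9.48 and 9.92 with vehicle. The vehicle level itself was lower at 12 h, and the chetomin libraries overlapped vehicle there. The log2 differences were -2.01 ± 0.23 and -1.36 ± 0.21 at 5 h (limma adjusted p = 0.0067 and 0.0063), and -0.35 ± 0.19 and 0.05 ± 0.22 at 12 h (limma adjusted p = 0.185 and 0.886), chaetocin first. Without either chetomin replicate the 5 h call with chetomin was lost, with a limma adjusted p of up to 0.121.

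The PeBoW complex, which holds PES1, BOP1 and WDR12 on large subunit precursors, was not called in any comparison with vehicle. PES1 had 158 and 144 with chaetocin and 193 and 211 with chetomin at 12 h, against 177 and 240 with vehicle. BOP1 had 181 and 163 with chaetocin and 192 and 183 with chetomin at 12 h, against 152 and 238 with vehicle. WDR12 had 47.7 and 46.9 with chaetocin and 59.2 and 66.6 with chetomin at 12 h, against 57.6 and 63.1 with vehicle. With chaetocin at 12 h PES1 and WDR12 lay below both vehicle libraries, by -0.44 ± 0.17 and -0.34 ± 0.14 (limma adjusted p = 0.0775 and 0.0801), and BOP1 overlapped. At 5 h PES1 had 227 and 246 with chaetocin and 247 and 243 with chetomin, below 397 and 280 with vehicle, by -0.50 and -0.44. BOP1 had 220 and 250 with chaetocin and 279 and 264 with chetomin at 5 h, against 285 and 228 with vehicle. WDR12 had 77.9 and 94.6 with chaetocin and 88.6 and 81.6 with chetomin at 5 h, against 92.9 and 115 with vehicle.

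NOL8, a nucleolar RNA-binding protein, had 17.5 and 19.4 with chaetocin and 12.0 and 13.2 with chetomin at 5 h, against 31.7 and 28.9 with vehicle. At 12 h NOL8 had 12.1 and 11.5 with chaetocin and 16.4 and 14.7 with chetomin, against 19.9 and 17.4 with vehicle. All 8 libraries lay below vehicle, and NOL8 was called with chetomin at 5 h (-1.20) and with chaetocin at 12 h (-0.62). On the authors' CPM scale the NOL8 call with chetomin held and that with chaetocin was lost. NOP53, a late large subunit factor, had 213 and 242 with chaetocin and 249 and 252 with chetomin at 5 h, against 210 and 169 with vehicle. At 12 h NOP53 had 217 and 189 with chaetocin and 226 and 227 with chetomin, against 179 and 230 with vehicle. It lay above vehicle at 5 h, by 0.27 and 0.41, the highest differences of the group there, overlapped vehicle at 12 h and was not called.

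NOL9, the kinase that phosphorylates a pre-rRNA cleavage product, had 9.26 and 7.88 with chaetocin and 8.89 and 10.92 with chetomin at 5 h, against 9.28 and 10.1 with vehicle. At 12 h NOL9 had 5.98 and 6.81 with chaetocin and 6.86 and 6.26 with chetomin, against 10.39 and 8.29 with vehicle. It was below vehicle at 12 h without being called. RRP15, a factor of large subunit precursors, had 22.9 and 17.6 with chaetocin and 16.9 and 12.4 with chetomin at 5 h, against 21.8 and 19.3 with vehicle. At 12 h RRP15 had 6.55 and 8.75 with chaetocin and 6.12 and 8.90 with chetomin, against 9.92 and 13.98 with vehicle. Neither gene was called in any of the 4 comparisons.

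The 19 small subunit processome genes split in both directions. With chaetocin 1 was called lower at 5 h (beside 6.53% of all genes) and 6 at 12 h (beside 26.8%). With chaetocin 0 were called higher at either time (beside 4.56% and 20.2% of all genes). With chetomin 3 were called lower (beside 8.71% of all genes) and 1 higher (beside 7.02%) at 5 h. At 12 h chetomin had 5 lower (beside 20.2%) and 1 higher (beside 15.6%) of the 19. Their medians were -0.12 and -0.28 at 5 h and -0.18 and -0.12 at 12 h, chaetocin first, which turned to 0.11, -0.05, 0.15 and 0.20 on the authors' CPM scale. On that scale 0 were called with chaetocin, and 1 lower and 2 higher with chetomin, at 5 h, where 9.71% and 14.4% of all genes were called. At 12 h it gave 3 lower and 4 higher with chaetocin and 1 lower and 4 higher with chetomin. There 42.4% and 31.9% of all genes were called, chaetocin first. RRP36, a processome factor chosen here after its values were seen because it was called in all 4 comparisons, had 53.0 and 59.4 with chaetocin and 59.2 and 57.2 with chetomin at 5 h, against 95.8 and 97.7 with vehicle. By 12 h it had 35.2 and 38.3 with chaetocin and 44.0 and 45.8 with chetomin, against 80.9 and 75.1 with vehicle. Its log2 differences ran between -1.07 and -0.72 (limma adjusted p between 0.0020 and 0.0248), and on the authors' CPM scale the call with chaetocin at 12 h held while the other 3 were lost.

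NOL6, a large processome scaffold protein, had 16.2 and 15.7 with chaetocin and 15.6 and 14.9 with chetomin at 5 h, against 27.0 and 25.7 with vehicle. After 12 h its values were 8.61 and 8.93 with chaetocin and 10.4 and 9.41 with chetomin, against 16.3 and 20.1 with vehicle. It lay below vehicle in all 8 libraries and was called in 3 of 4 comparisons, the exception being chaetocin at 5 h (-0.69, limma adjusted p = 0.0569). On the authors' CPM scale the call with chaetocin at 12 h held, while those with chetomin at both times were lost.

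UTP15, of the t-UTP subcomplex that links processing to ribosomal DNA transcription, had 16.3 and 14.5 with chaetocin and 12.1 and 13.97 with chetomin at 5 h, against 19.6 and 25.1 with vehicle. At 12 h UTP15 had 6.26 and 7.34 with chaetocin and 10.13 and 9.89 with chetomin, against 16.6 and 11.1 with vehicle. It lay below vehicle in all 8 libraries and was called with chaetocin at 12 h (-0.91 ± 0.25, limma adjusted p = 0.0247), a call lost on the authors' CPM scale. UTP4 of the same subcomplex had 106 and 77.5 with chaetocin and 97.7 and 97.3 with chetomin at 5 h, against 55.5 and 79.0 with vehicle. At 12 h UTP4 had 94.4 and 90.9 with chaetocin and 86.9 and 79.7 with chetomin, against 80.1 and 62.5 with vehicle. Its differences, between 0.23 and 0.55, were not called here, though on the authors' CPM scale UTP4 was called higher with chetomin at both times and with chaetocin at 12 h.

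UTP20, a large processome protein, had 9.81 and 6.64 with chaetocin and 6.90 and 6.48 with chetomin at 5 h, against 4.76 and 7.76 with vehicle. At 12 h UTP20 had 6.31 and 7.4 with chaetocin and 5.44 and 4.37 with chetomin, against 7.27 and 4.21 with vehicle. Its groups overlapped vehicle throughout, between -0.16 and 0.36. NOL10, a further processome protein, had 37.8 and 34.3 with chaetocin and 26.0 and 30.1 with chetomin at 5 h, against 32.0 and 37.7 with vehicle. At 12 h NOL10 had 23.4 and 24.2 with chaetocin and 22.7 and 22.2 with chetomin, against 28.0 and 21.3 with vehicle. NOL10 was below vehicle only with chetomin at 5 h (-0.30) and was not called.

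RRP9, a protein of the U3 snoRNP, had 137 and 153 with chaetocin and 173 and 168 with chetomin at 5 h, against 160 and 128 with vehicle. At 12 h RRP9 had 90.9 and 86.1 with chaetocin and 119 and 122 with chetomin, against 74.6 and 102 with vehicle. It lay above vehicle with chetomin, by 0.25 at 5 h and 0.46 at 12 h, uncalled here (limma adjusted p = 0.350 and 0.0852) and called higher at 12 h on the authors' CPM scale.

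UTP23 and UTP6 were called higher with chetomin. On the authors' CPM scale both were also called higher with chaetocin at 12 h, as was UTP11, and UTP23 with chetomin at 12 h. UTP23 had 53.4 and 67.4 with chetomin at 5 h, against 29.9 and 30.1 with vehicle, a difference of 0.98 ± 0.18 (limma adjusted p = 0.0111). UTP6 had 56.5 and 60.2 with chetomin at 12 h, against 41.3 and 29.1 with vehicle, a difference of 0.73 ± 0.20 (limma adjusted p = 0.0253). Both groups were apart from vehicle, yet each call was lost without either chetomin replicate, with limma adjusted p of up to 0.19 for UTP23 and 0.287 for UTP6. UTP14C, a retrocopy of UTP14A whose exons overlap those of ALG11 on the same strand, is uncertain, since reads may be split between them. UTP14C had 2.31 and 1.84 with chaetocin and 3.23 and 3.31 with chetomin at 5 h, against 3.45 and 5.35 with vehicle. At 12 h UTP14C had 3.64 and 4.51 with chaetocin and 5.80 and 4.93 with chetomin, against 5.92 and 3.60 with vehicle. It lay below vehicle at 5 h, overlapped it at 12 h and was called in none of the 4 comparisons.

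**Figure D4:**
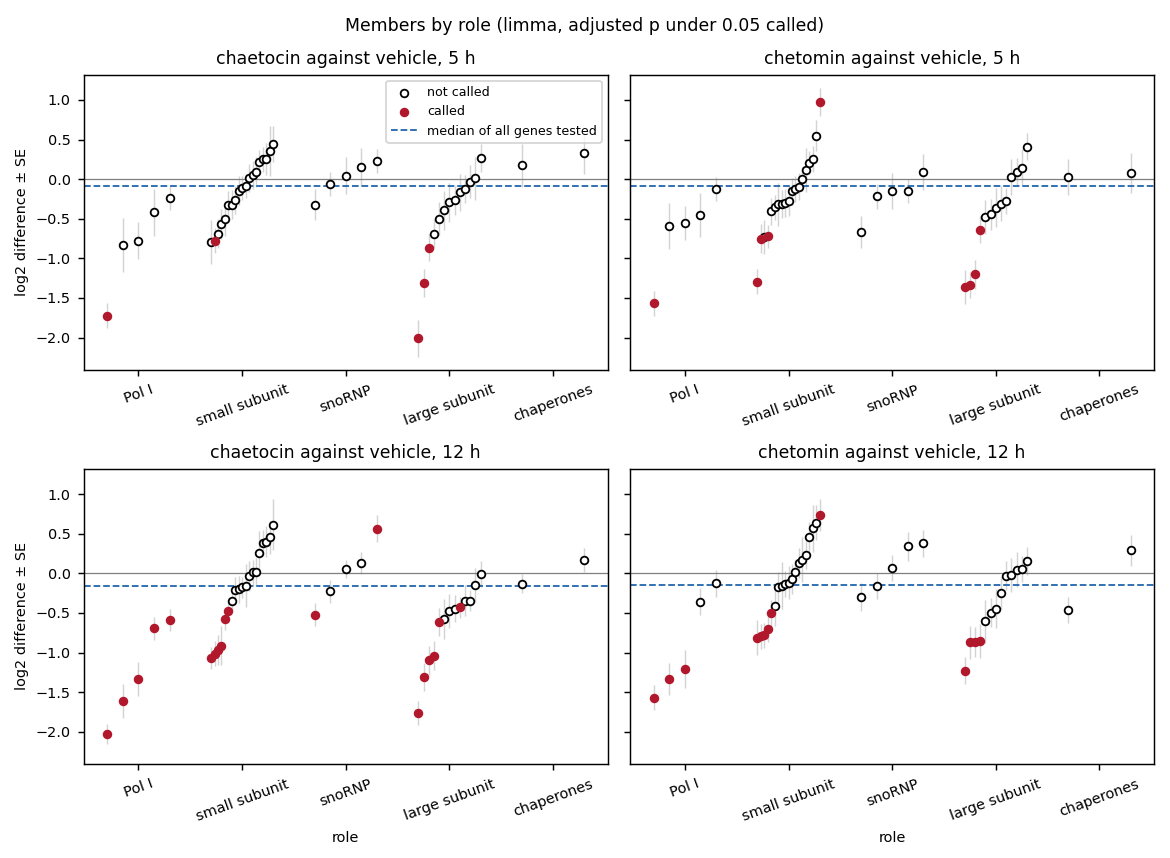
Log2 difference from vehicle ± SE of each factor by role for chaetocin and chetomin at 5 h and 12 h, ordered by value within a role; filled points are called by limma and the dashed line is the median of all genes tested. All 5 RNA polymerase I subunits are called with chaetocin at 12 h, whereas the snoRNP core and the chaperones lie on both sides of 0, between -0.67 and 0.56.

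The snoRNP core proteins and the chaperones, which include NPM1, the transcript with the highest vehicle value of the 47, had few calls: 0 at 5 h with either compound, 1 lower and 1 higher with chaetocin at 12 h, and 0 with chetomin at 12 h. Of all genes 11.1% and 15.7% were called at 5 h and 47% and 35.8% at 12 h, chaetocin first. NPM1, a nucleolar histone and ribosome chaperone, had 4376 and 4264 with chaetocin and 3562 and 3720 with chetomin at 5 h, against 3345 and 3534 with vehicle. At 12 h NPM1 had 3261 and 3281 with chaetocin and 3486 and 3645 with chetomin, against 3158 and 2685 with vehicle. All 8 libraries lay above both vehicle libraries of their time, by between 0.08 and 0.33, and none of the 4 differences was called (95% interval with chaetocin at 5 h -0.29 to 0.95). On the authors' CPM scale NPM1 was called higher at 12 h, by 0.53 with chaetocin and 0.62 with chetomin (limma adjusted p = 0.0279 and 0.0398). The annotation names 45 pseudogenes after NPM1, so its reads are uncertain.

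FBL, the methyltransferase of box C/D snoRNPs, had 1305 and 1524 with chaetocin and 1318 and 1391 with chetomin at 5 h, against 1489 and 1081 with vehicle. The 12 h values were 1017 and 955 with chaetocin and 1121 and 1223 with chetomin, against 824 and 985 with vehicle. Its differences lay between 0.09 and 0.38, with overlapping groups except for chetomin at 12 h. NCL, which binds pre-rRNA, had 1139 and 799 with chaetocin and 846 and 872 with chetomin at 5 h, against 697 and 1021 with vehicle. At 12 h NCL had 947 and 943 with chaetocin and 801 and 703 with chetomin, against 1047 and 1023 with vehicle. It lay below both vehicle libraries at 12 h with either compound, and the difference with chetomin, -0.46 ± 0.16, was not called (limma adjusted p = 0.0573).

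NOP56 and NOP58 pair in the box C/D core. NOP56 had 465 and 492 with chaetocin and 342 and 413 with chetomin at 5 h, against 679 and 527 with vehicle, differences of -0.32 and -0.67 that were not called (limma adjusted p = 0.332 and 0.0602). At 12 h NOP56 had 306 and 331 with chaetocin and 322 and 344 with chetomin, against 407 and 341 with vehicle. NOP58 had 145 and 128 with chaetocin at 12 h, against 106 and 79.5 with vehicle, and was called higher (0.56 ± 0.17, limma adjusted p = 0.0374). With chetomin NOP58 had 116 and 117 at 12 h, uncalled. At 5 h NOP58 had 179 and 194 with chaetocin and 127 and 147 with chetomin, against 166 and 151 with vehicle. DKC1, the pseudouridine synthase of box H/ACA snoRNPs, had 67.8 and 67.1 with chaetocin at 12 h, against 106 and 88.9 with vehicle, and was called lower (-0.52 ± 0.14, limma adjusted p = 0.0260). With chetomin DKC1 had 84.9 and 73.0 at 12 h, uncalled. At 5 h DKC1 had 115 and 112 with chaetocin and 101 and 112 with chetomin, against 112 and 125 with vehicle. The NOP58 and DKC1 calls were both lost without either chaetocin replicate. On the authors' CPM scale the snoRNP core had medians between 0.08 and 0.42 and no member called lower. At 12 h 3 were called higher with chaetocin and 2 with chetomin, where 42.4% and 31.9% of all genes were called in either direction.

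By member, 4 of 47 were called lower in all 4 comparisons (NOP16, POLR1C, RRP1 and RRP36), 1 in 3 comparisons, 9 in 2 and 6 in 1, and 24 were called in neither direction in any of them. No factor was called lower in one comparison and higher in another. These comparisons share their vehicle libraries. The same tally over all genes was not made, so it is not known whether these numbers differ from those of other genes.

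The sulfide-depleted analogs left the 47 factors uncalled. With MeS-chaetocin 0 of 47 were called at 5 h and 0 at 12 h, where 0% of all genes were called at each time. With MeS-chetomin 0 of 47 were called at 5 h, where 0.141% of all genes were called (0.0635% lower and 0.0776% higher), and 0 at 12 h, where 0% were. At an unadjusted p under 0.05 the counts were 0 and 2 with MeS-chaetocin and 5 and 0 with MeS-chetomin, 5 h first. The share of all genes under that unadjusted threshold was not counted. The authors' deposited table also called 0 of 47 in each of the 4. POLR1C with the analogs had 123 and 138 (MeS-chaetocin) and 128 and 149 (MeS-chetomin) at 5 h and 113 and 138 (MeS-chaetocin) and 96.8 and 117 (MeS-chetomin) at 12 h, in or near the range of vehicle. POLR1A had 27.1 and 27.7 and POLR1B 42.5 and 45.7 with MeS-chetomin at 5 h, against 11.7 and 18.5 and against 17.3 and 29.1 with vehicle. These libraries lay above vehicle, by 0.85 and 0.94, without being called (limma adjusted p = 0.266 for each). For POLR1A at 5 h the MeS-chaetocin libraries, 5.28 and 23.8, lay far apart (95% interval of the difference from vehicle -1.971 to 1.301). Without replicate 2 of vehicle at 5 h the count of calls with MeS-chetomin rose, among all genes as among the 47.

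Each parent compound was also set against its own analog at the same dose and time. Chaetocin against MeS-chaetocin gave 4 lower and 0 higher of 47 at 5 h, where 6.56% of all genes were called (3.45% lower and 3.11% higher), and 22 lower and 3 higher at 12 h, where 53.8% were (31.6% lower and 22.2% higher). Chetomin against MeS-chetomin gave 12 lower and 3 higher at 5 h, where 32.8% of all genes were called (23.9% lower and 8.97% higher), and 17 lower and 4 higher at 12 h, where 47.4% were (28.6% lower and 18.8% higher). On the authors' CPM scale more of the 47 were called higher and fewer lower at 12 h than above, with either compound. The all-gene split on that scale at 12 h is not given here. The 5 h split with chetomin was then 7 lower and 10 higher, where 32.5% of all genes were called. Of those 4621 genes 1587 were lower, so most calls of all genes were upward too. POLR1A and POLR1B, high with MeS-chetomin at 5 h, were among the chetomin calls there, at -1.44 and -1.40. POLR1C, NOP16 and RRP36 were called lower in all 4, with POLR1C between -2.193 and -1.504. Without a single library these counts changed too, at 5 h among all genes as among the 47. The median difference of the 47 then ran from -0.189 to -0.133 at 5 h and from -0.394 to -0.359 at 12 h for chaetocin. For chetomin it ran from -0.25 to -0.189 at 5 h and from -0.319 to -0.275 at 12 h. MeS-chaetocin against MeS-chetomin gave 0 calls among the 47 at 5 h, where 0% of all genes were called, and 0 at 12 h, where 0.00656% were. At an unadjusted p under 0.05 the counts were 0 and 18. All genes were not counted at that threshold, so it is not known whether 18 differs from other genes. Vehicle enters the comparison of the analogs only through the spread. Without either vehicle library at 12 h it gave calls among the 47, and the all-gene share in those fits is not given here.

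Chaetocin and chetomin differed in 1 of 47 factors at 5 h, where 0.767% of all genes were called (0.64% lower and 0.127% higher with chaetocin), and in 0 at 12 h, where 4.67% were (1.27% lower and 3.4% higher). At an unadjusted p under 0.05, 5 differed at 5 h and 11 at 12 h, with all genes not counted at that threshold. The 1 call was UTP3 (ENSG00000132467; chr4:70688479-70690551, plus strand, 1 exon), a processome protein described here after its values were seen. UTP3 had 57.0 and 58.7 with chaetocin and 24.5 and 25.6 with chetomin at 5 h, against 63.1 and 62.4 with vehicle. Its values at 12 h were 41.1 and 39.0 with chaetocin and 29.7 and 32.5 with chetomin, against 51.0 and 51.5 with vehicle. The chetomin libraries lay below the chaetocin libraries at both times. The difference, chaetocin minus chetomin, was 1.18 ± 0.13 at 5 h (95% interval 0.88 to 1.47, limma adjusted p = 0.0105) and 0.35 ± 0.13 at 12 h (0.05 to 0.66, limma adjusted p = 0.177). Without any 1 of the 4 chaetocin and chetomin libraries the 5 h call was lost, with a limma adjusted p of up to 0.155. POLR1C and NOP16, low with both compounds, were not called between them. POLR1C differed by -0.16 at 5 h (-0.47 to 0.15) and -0.46 at 12 h (-0.75 to -0.17, limma adjusted p = 0.0775), and NOP16 by -0.53 at 12 h (-0.85 to -0.21, limma adjusted p = 0.0721). Vehicle enters the comparison of chaetocin with chetomin only through the spread. Without either vehicle library some factors were called at 12 h, all lower with chaetocin. The all-gene share in those fits is not given here, so it is not known whether this differs from other genes.

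The effects at 12 h and 5 h were compared in 1 model over both times. Of the 47 factors 1 changed its difference from vehicle with chaetocin, where 4.37% of all genes did (0.903% downward and 3.47% upward), and 0 did with chetomin, where 0.498% did (0.171% downward and 0.327% upward). With chetomin 5 factors had an unadjusted p under 0.05, a threshold at which all genes were not counted. The 1 was RRP8, whose difference from vehicle was higher by 1.66 ± 0.29 (SE) at 12 h than at 5 h (95% interval 1.02 to 2.30, limma adjusted p = 0.0128). With chetomin RRP8 moved by 1.41 ± 0.28 (0.80 to 2.02, limma adjusted p = 0.0567), which was not called. The MYC difference moved by 1.36 ± 0.23 with chaetocin (limma adjusted p = 0.0110) and 0.56 ± 0.22 with chetomin (limma adjusted p = 0.196). Without chaetocin replicate 1 at 12 h the MYC call was lost (limma adjusted p = 0.0659). Without chaetocin replicate 1 at 5 h, or either chaetocin replicate at 12 h, the RRP8 call was lost, with a limma adjusted p of up to 0.0696. POLR1A and POLR1B moved the other way with chaetocin, by -0.78 and -0.92, and were not called (limma adjusted p = 0.324 and 0.218).

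**Figure D5:**
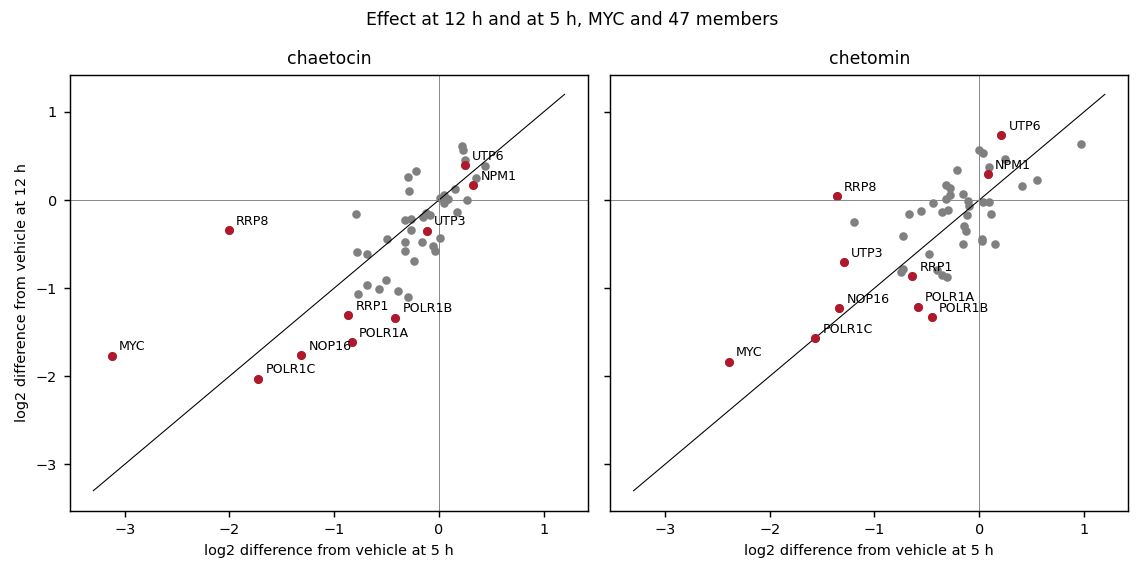
Log2 difference from vehicle at 12 h (vertical) against that at 5 h (horizontal) for MYC and the 47 factors with chaetocin and with chetomin; the line marks equal differences and red points are named. RRP8 and MYC lie above the line, while POLR1A and POLR1B lie below it.

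Genes of the same pathways outside the naming rule were counted in the same way, beside 6.53% (chaetocin) and 8.71% (chetomin) of all genes called lower at 5 h, and 26.8% and 20.2% at 12 h. The shares of all genes called higher were 4.56% and 7.02% at 5 h and 20.2% and 15.6% at 12 h, chaetocin first. Of 74 other ribosome biogenesis genes, 9 (12.2%) were lowered by chaetocin and 13 (17.6%) by chetomin at 5 h, with 0 raised by either. At 12 h 29 (39.2%) were lowered and 1 raised by chaetocin, and 19 (25.7%) were lowered and 2 raised by chetomin, the second share near that of all genes. Their medians were -0.33 and -0.30 at 5 h and -0.43 and -0.28 at 12 h, chaetocin first; the pathway lists were not recounted on the authors' CPM scale. MPHOSPH10, a U3 snoRNP protein, averaged 9.75 ± 0.01 with chaetocin and 11.5 ± 2.1 with chetomin at 5 h, against 41.3 ± 4.6 with vehicle (SD, n = 2 each). RIOK2, a kinase of late small subunit maturation, averaged 8.63 ± 1.301 with chaetocin and 9.20 ± 2.72 with chetomin at 5 h, against 34.1 ± 2.3 with vehicle (SD, n = 2 each). MPHOSPH10 and RIOK2 were the lowest of the list with chaetocin at 5 h, at -1.97 and -1.87 (limma adjusted p = 0.0041 and 0.0058).

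Of 15 RNA polymerase I factors outside the rule, 3 (20%) were lowered by chaetocin and 4 (26.7%) by chetomin at 5 h. At 12 h 2 (13.3%) were lowered and 1 raised by each compound, shares below those of all genes. Those were 26.8% and 20.2% lower and 20.2% and 15.6% higher, chaetocin first. CD3EAP, another subunit of RNA polymerase I, fell in all 4 comparisons, between -1.34 and -1.03. UBTF, which binds along active ribosomal DNA, also fell in all 4 and averaged 57.8 ± 0.1 with chaetocin and 28.9 ± 0.4 with chetomin at 12 h, against 86.8 ± 9.1 with vehicle (SD, n = 2 each). TWISTNB, a further subunit, fell with chaetocin at 5 h (-1.03, limma adjusted p = 0.0267).

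Of 11 genes of MYC and the MAX network, 1 (9.09%) was lowered and 1 raised by each compound at 5 h, namely MYC and MXD1. Of all genes 6.53% and 8.71% were called lower and 4.56% and 7.02% higher at 5 h, chaetocin first. MXD1, a MAX partner that represses MYC target genes, averaged 12.2 ± 0.6 with chaetocin and 6.72 ± 0.69 with chetomin at 12 h, against 0.955 ± 0.601 with vehicle (SD, n = 2 each). At 12 h 7 (63.6%) of the network were lowered and 2 raised by chaetocin, and 4 (36.4%) lowered and 1 raised by chetomin. The all-gene shares at 12 h were 26.8% and 20.2% lower and 20.2% and 15.6% higher, chaetocin first. Of 26 other MYC target genes, metabolic and translational ones among them, 0 were called with chaetocin at 5 h and 1, raised, with chetomin. At 12 h 5 (19.2%) were lowered and 4 raised by chaetocin, shares below those of all genes. With chetomin 5 (19.2%) were lowered, near the share of all genes, and 1 was raised, below that share. The medians of these 26 lay between 0.06 and 0.10 in the 4 comparisons, above the all-gene medians.

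Promoter sequences were examined for the palindromic E-box CACGTG, the motif that MYC binds with MAX. RefSeq promoters of GRCh38.p14, 250 bases before to 50 after the start, matched 40 of the 47 factors; BOP1, NOL10, NOP58, POLR1E, RRP12, RRP1B and UTP23 were not matched. CACGTG occurred in 13 of the 40 (32.5%), against 2030 of 27305 promoters of the same length in all (7.435%). The variant CACGCG, read on both strands, occurred in 9 of 40 (22.5%), against 3112 of 27305 (11.397%). A match is a string of letters and not a measured binding site. The bases upstream of the start are shown for 3 factors that held CACGTG there (in capitals) and for POLR1C, NOP16 and RRP8, low factors whose windows held no CACGTG; POLR1C held the variant CACGCG at -21, which is not in capitals. The 6 were chosen after their values were seen.
NOL8 (chr9:92325351-92325600, minus strand): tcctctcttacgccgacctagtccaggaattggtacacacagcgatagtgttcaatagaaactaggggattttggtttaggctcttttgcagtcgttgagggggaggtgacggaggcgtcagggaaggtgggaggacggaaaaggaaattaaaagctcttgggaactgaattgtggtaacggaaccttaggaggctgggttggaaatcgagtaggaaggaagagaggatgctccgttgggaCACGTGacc
UTP4 (chr16:69132399-69132648, plus strand): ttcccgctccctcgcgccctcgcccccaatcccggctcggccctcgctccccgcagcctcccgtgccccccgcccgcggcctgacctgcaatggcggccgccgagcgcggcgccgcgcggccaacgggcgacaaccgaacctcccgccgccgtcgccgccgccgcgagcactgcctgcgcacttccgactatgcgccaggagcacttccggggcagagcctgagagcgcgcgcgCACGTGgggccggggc
UTP20 (chr12:101279855-101280104, plus strand): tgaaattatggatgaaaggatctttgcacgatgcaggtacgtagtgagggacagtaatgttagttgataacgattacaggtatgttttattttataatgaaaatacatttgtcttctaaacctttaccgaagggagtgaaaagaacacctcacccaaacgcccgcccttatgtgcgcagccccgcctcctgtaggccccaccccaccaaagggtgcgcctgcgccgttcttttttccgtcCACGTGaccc
POLR1C (chr6:43516839-43517088, plus strand): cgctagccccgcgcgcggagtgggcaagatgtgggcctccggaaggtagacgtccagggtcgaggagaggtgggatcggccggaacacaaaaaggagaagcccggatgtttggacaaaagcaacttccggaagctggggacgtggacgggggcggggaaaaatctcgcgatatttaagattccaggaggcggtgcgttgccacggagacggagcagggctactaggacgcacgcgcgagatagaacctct
NOP16 (chr5:176388599-176388848, minus strand): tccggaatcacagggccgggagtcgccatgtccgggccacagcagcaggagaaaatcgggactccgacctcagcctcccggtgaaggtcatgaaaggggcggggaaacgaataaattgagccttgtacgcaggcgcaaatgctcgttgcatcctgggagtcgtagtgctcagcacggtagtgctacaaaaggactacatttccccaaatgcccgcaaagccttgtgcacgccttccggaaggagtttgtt
RRP8 (chr11:6603617-6603866, minus strand): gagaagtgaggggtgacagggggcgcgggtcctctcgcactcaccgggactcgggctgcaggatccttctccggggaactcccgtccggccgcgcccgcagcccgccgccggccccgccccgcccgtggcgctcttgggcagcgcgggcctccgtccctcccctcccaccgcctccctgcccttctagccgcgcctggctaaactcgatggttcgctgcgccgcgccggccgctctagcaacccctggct

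The motif CACGTG started at -16 in UTP4, -10 in UTP20 and -9 in NOL8, counted from the transcription start, and of these only NOL8 was called. The 13 factors that held CACGTG had a median difference of 0.01 with chaetocin and -0.15 with chetomin at 5 h, against -0.29 and -0.36 for the 27 without it. At 12 h the medians were -0.18 and -0.03 with the motif, against -0.35 and -0.30 without. The ranges overlapped throughout, from -1.20 to 0.55 with the motif and from -2.03 to 0.73 without over the 4 comparisons, and these values are a description with no test.

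The authors' deposited table gave a different balance of directions. It called 8 of the 47 lower and 2 higher with chaetocin and 7 lower and 3 higher with chetomin at 5 h, where it called 29.5% and 31.2% of all listed genes. At 12 h it called 14 lower and 13 higher with chaetocin and 10 lower and 12 higher with chetomin, where it called 60.3% and 53.4%. The deposited median log2 fold change of the 47 was -0.07 and -0.06 at 5 h and 0.01 and 0.11 at 12 h, chaetocin first, beside 0.07, 0.07, 0.12 and 0.10 over all genes listed.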

How the data were processed

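Titles gave each library's compound and time, with 2 libraries a group that the labels number as biological replicates. Per the labels' protocols libraries were made from poly(A) RNA with a strand-preserving kit. For the authors' pipeline the submitters' processing notes name STAR 2.5.2b, GRCh38, RSEM 1.3.3 and edgeR (no version). The gene annotation, strand setting and settings of these tools are in none of the sources used here. The authors deposited 8 tables with a normalized signal per library, whose unit the headers do not name, a mean CPM per group, a log2 fold change, a p-value and a q-value; how the authors made the last 3 is not stated in the file headers. The vehicle values repeat in the tables of a time and were read once.

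The design written for these comparisons was kept, and since the values are not counts log2(value + 1) was modelled with limma 3.58.1 (R 4.3.3) and a trended prior; this scale understates differences of low genes. Vehicle comparisons used 4 libraries, comparisons between compounds 6 (vehicle included for the spread) and comparisons of times 8. P-values were adjusted by Benjamini-Hochberg over all genes of a comparison, with a threshold of 0.05. The members, role lists and pathway lists were chosen with earlier results of these data known, so no adjustment over a list alone and no test of a list is given. Values per library are given for MYC, the singly named members, POLR1A to POLR1E, and the 2 lowest and 2 highest of the UTP, NOP, NOL and RRP families with chaetocin at 5 h; further members were named after their values were seen. The labels do not say that the libraries of a group came from separate cultures, so p-values measure only the spread between these libraries. Gene coordinates are those of GENCODE release 29 on GRCh38, and overlaps and pseudogene names were read from it. The ratio of deposited CPM to deposited value rose with exonic length across genes (Spearman rho 0.596 over 12341 genes, which are not independent replicates). The fit was tested on simulated data. Alternatives were a pseudocount of 0.1, a minimum mean value of 1, the authors' CPM scale and median-of-ratios scaling. Others were all 10 libraries of a time, the replicate number as a block, and each library left out. The authors' CPM scale means the deposited values shifted by 1 constant per compound group, not a fit to CPM of single libraries.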

Additional observations from a re-analysis of the deposited data

Results flagged for a closer look

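The difference from vehicle with chaetocin was larger in size at 5 h than at 12 h for 2 genes among MYC and the factors, by a limma test of the time difference itself. For RRP8 the 12 h difference minus the 5 h difference was 1.66 (limma adjusted p = 0.0128), and for MYC it was 1.36 (limma adjusted p = 0.0110), a call lost without chaetocin replicate 1 at 12 h (limma adjusted p = 0.0659). With chetomin 2 further factors lay on opposite sides of vehicle at the 2 times, with no overlap of libraries at either time. How many of all genes did so was not counted, so the 2 are described singly and not as a trait of the factors. NOP58 was -0.21 at 5 h and 0.34 at 12 h, a change of 0.56 (limma adjusted p = 0.224), and UTP14A was -0.28 at 5 h and 0.13 at 12 h, a change of 0.41 (limma adjusted p = 0.374), so neither change was called. With 2 libraries a group no library could be tested against the others of its group.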

How the results depend on the processing

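Of 110 recounts other than those leaving out a library, 98 stayed within 1.5 times of the reported count of called factors. The other 12 were as follows. Chaetocin at 5 h (5 reported) gave 3 on the authors' CPM scale, 3 with median-of-ratios scaling and 8 with all 10 libraries. With all 10 libraries chetomin at 12 h gave 21 and chaetocin against chetomin at 12 h gave 4. Chaetocin against MeS-chaetocin at 5 h gave 2 with median-of-ratios scaling. The chetomin time comparison (0 reported) gave 1 on the authors' CPM scale and 1 with median-of-ratios scaling.

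The replicate numbers did not qualify as pairs, since deviations of same-numbered libraries correlated between -0.622 and 0.771 over genes. With the replicate block MeS-chetomin at 5 h gave 3 calls, the chaetocin time comparison 0 and the chetomin time comparison 1; with a crossed replicate block, chosen after seeing the data, chaetocin at 5 h gave 18. Chaetocin gave 4 at 5 h and 16 at 12 h with the block, chetomin 11 and 13.

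Leaving out 1 library at a time gave 2 to 8 calls for chaetocin at 5 h, 3 to 16 for chetomin at 5 h, 2 to 28 for chaetocin at 12 h and 0 to 16 for chetomin at 12 h. MeS-chetomin at 5 h gave 0 to 8, chaetocin against chetomin 0 to 1 at 5 h and 0 to 7 at 12 h, and MeS-chaetocin against MeS-chetomin at 12 h 0 to 12. Chaetocin against MeS-chaetocin gave 0 to 5 at 5 h and 12 to 30 at 12 h, chetomin against MeS-chetomin 5 to 26 and 7 to 31, and both time comparisons 0 to 1. Where an arm had 1 library left it was assumed to vary like the others. For chaetocin and chetomin against vehicle the count of all genes called also changed with each library left out. For the comparisons between compounds at 12 h that count is not given here.

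For MYC and the factors, 122 calls were refitted in 1392 settings: 1059 kept direction and call, 332 lost the call and 1 reversed, NCL with chaetocin against MeS-chaetocin at 12 h on the authors' CPM scale (0.006, limma adjusted p = 0.97). The causes were not tested. Read depth is unknown, which limits what can be said of the lowest values.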
